A study of Mus musculus with 4 samples.

Results

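Small heat shock proteins are short chaperones that share an alpha-crystallin domain, and 7 of their genes known from skeletal and cardiac muscle, Hspb1, Hspb2, Hspb3, Hspb6, Hspb7, Hspb8 and Cryab, were followed in mice that overexpress the nuclear receptor PPARbeta in muscle. A gene was taken where a probe set carried exactly 1 symbol, that of the gene. By this rule 6 of the 7 genes were found on the array, in 13 probe sets, out of 12393 genes with such a probe set, and Hspb6 was not analysed here. Where a gene had several probe sets, the one with the highest mean log2 signal over all 4 arrays represented it, and the others are given beside it. The genes were chosen by symbol and their representatives selected on that mean signal, which is given only as a description. The difference between genotypes did not enter the rule, but the family was proposed with results of these data known, so the tests below describe it and support nothing. All 6 representatives lay above the level used to filter low signals (444 signal units), with mean signals of 4308 for Hspb3 up to 57085 for Hspb1, and 6841 genes in all did so.

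The study compared gastrocnemius, a calf muscle of mostly fast fibres, between MCK-PPARb transgenic mice (2 arrays) and their non-transgenic littermates, labelled wild-type (2 arrays), all at 6 weeks of age. The transgenic mice are labelled as overexpressing PPARbeta specifically in muscle, and MCK is the usual abbreviation of the muscle creatine kinase gene, whose promoter drives transgenes in differentiated muscle fibres. The sources used here name no strain, sex or number of transgenic lines. Arrays of a genotype are labelled as biological replicates. The design text can also be read as repeat arrays, in which case the p-values cover the spread between these samples alone, which may be technical.

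Small heat shock proteins bind partly unfolded proteins without using ATP and hold them in a state from which other chaperones can refold or clear them. In striated muscle they associate with the Z-disc, with desmin filaments and with titin, and several move to the sarcomere under stress. Some, such as Hspb1 and Cryab, are classical heat-inducible genes under heat shock factor 1, whereas Hspb2 and Hspb3 are switched on during muscle differentiation, and Hspb7 is best known from heart and skeletal muscle.

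The overexpressed gene itself checks the labels. Ppard read 126049 and 98797 signal units in MCK-PPARb muscle, against 2169 and 2825 in non-transgenic muscle. It was higher by 5.49 ± 0.22 on the log2 scale (limma SE, 2 arrays a group, limma adjusted p = 0.000187). Each SE and interval here and below is that of limma, whose spread is partly pooled over the probe sets above the filter. It is therefore not the spread of a gene's own arrays alone. The skeletal muscle markers Acta1 (136104 and 118002 in MCK-PPARb muscle, 223921 and 113926 in non-transgenic muscle) and Ckm (152102 and 126273 against 258580 and 118251) were bright on every array. Non-transgenic replicate 1 stood apart among the brightest probe sets, since its top 10 took 4.20% of the array's signal, where those of the other 3 arrays took 2.36% to 2.78%.

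The start regions of 4 of these genes are printed so that their matches to heat shock elements can be set side by side. Whether such matches bear on the differences between genotypes was not tested. The start regions of Cryab, Hspb2 and Hspb6 were not used here. Each window runs from 250 bases before to 50 bases after the RefSeq start site of assembly GRCm38.p6, read in the direction of the gene. Capitals mark matches to short forms of the heat shock element, GAANNTTC and TTCNNGAA, each of which reads the same on both strands. Other forms of the element were not searched.
Hspb1, chr5:135887669-135887968, plus strand: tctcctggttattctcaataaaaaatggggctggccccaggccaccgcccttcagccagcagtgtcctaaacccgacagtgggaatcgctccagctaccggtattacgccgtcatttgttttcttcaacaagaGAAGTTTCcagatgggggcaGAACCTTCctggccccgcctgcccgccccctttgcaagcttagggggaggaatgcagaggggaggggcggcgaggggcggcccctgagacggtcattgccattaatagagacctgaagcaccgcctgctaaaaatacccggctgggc
Hspb8, chr5:116422815-116423114, minus strand: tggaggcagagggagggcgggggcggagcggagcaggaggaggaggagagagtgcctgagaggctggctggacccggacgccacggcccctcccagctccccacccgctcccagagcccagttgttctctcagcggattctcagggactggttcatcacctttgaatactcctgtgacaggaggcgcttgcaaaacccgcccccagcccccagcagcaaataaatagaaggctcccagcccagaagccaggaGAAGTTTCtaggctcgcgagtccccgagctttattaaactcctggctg
Hspb3, chr13:113663627-113663926, minus strand: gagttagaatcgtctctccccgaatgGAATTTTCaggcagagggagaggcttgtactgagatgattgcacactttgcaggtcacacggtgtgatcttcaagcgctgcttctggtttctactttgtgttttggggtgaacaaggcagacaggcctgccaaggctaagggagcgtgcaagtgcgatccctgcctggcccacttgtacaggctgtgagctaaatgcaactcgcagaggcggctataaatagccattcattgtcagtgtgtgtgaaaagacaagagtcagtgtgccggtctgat
Hspb7, chr4:141420529-141420828, plus strand: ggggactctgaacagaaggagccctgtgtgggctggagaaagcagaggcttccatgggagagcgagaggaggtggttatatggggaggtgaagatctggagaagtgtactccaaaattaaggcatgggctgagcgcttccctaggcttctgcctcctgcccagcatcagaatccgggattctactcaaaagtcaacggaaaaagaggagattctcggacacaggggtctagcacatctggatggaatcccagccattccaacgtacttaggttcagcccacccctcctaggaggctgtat

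Hspb1 held 2 matches to GAANNTTC, namely GAAGTTTC starting 117 bases and GAACCTTC starting 97 bases before the start site. Hspb8 held 1, GAAGTTTC at base 3 after the start, and Hspb3 held 1, GAATTTTC, 224 bases before it. Neither form was in the Hspb7 window. Among 32851 such windows of 27025 genes, 15.1% held at least 1 match to either form, 7.86% GAANNTTC and 8.52% TTCNNGAA. The hexamer of PPAR response elements, AGGTCA on either strand, was found in Hspb3 (173 bases before the start) and in 16.3% of all windows. TATAAA was found in Hspb3, 11 bases before the start, and in 13.6% of all windows, and the E-box CANNTG in all 4 windows and in 72.3% of all. Each match describes the letters of these windows and is no evidence of binding.

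**Figure D1:**
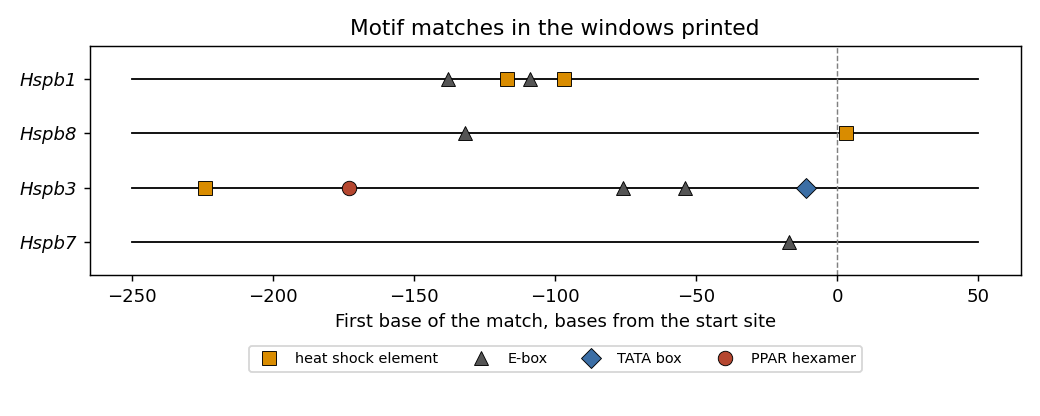
Matches to 4 motifs in the start regions of Hspb1, Hspb8, Hspb3 and Hspb7. The horizontal axis gives the first base of each match in bases from the start site (dashed line), and each symbol is 1 match. Hspb1 carries 2 matches to the heat shock element forms searched, while Hspb7 carries 0.

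The differences of the 6 representatives varied, and no test compared the genes with each other. Hspb7 rose 2.78-fold in MCK-PPARb muscle and was the only member to pass the test over all genes. Hspb1 and Cryab, the most familiar heat-inducible members, were 1.93-fold and 1.92-fold higher and did not pass. Their other probe sets above the filter were 2.56-fold and 2.62-fold higher, and those of Hspb7 2.88-fold and 2.97-fold. None of these other probe sets passed. Hspb2 (1.14-fold), Hspb3 (1.07-fold) and Hspb8 (0.821-fold) did not pass either. The threshold for a call was an adjusted p under 0.05 in limma, which pools the spread over 11313 probe sets. Of the 6 members, 1 was called, against 0.731% of all 6841 genes tested (0.409% higher, 0.322% lower). The median log2 difference of the members was 0.57, against 0.011 over all genes. Because the genes were chosen with results of these data known, neither the count nor the median is evidence that the family stands apart.

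**Figure D2:**
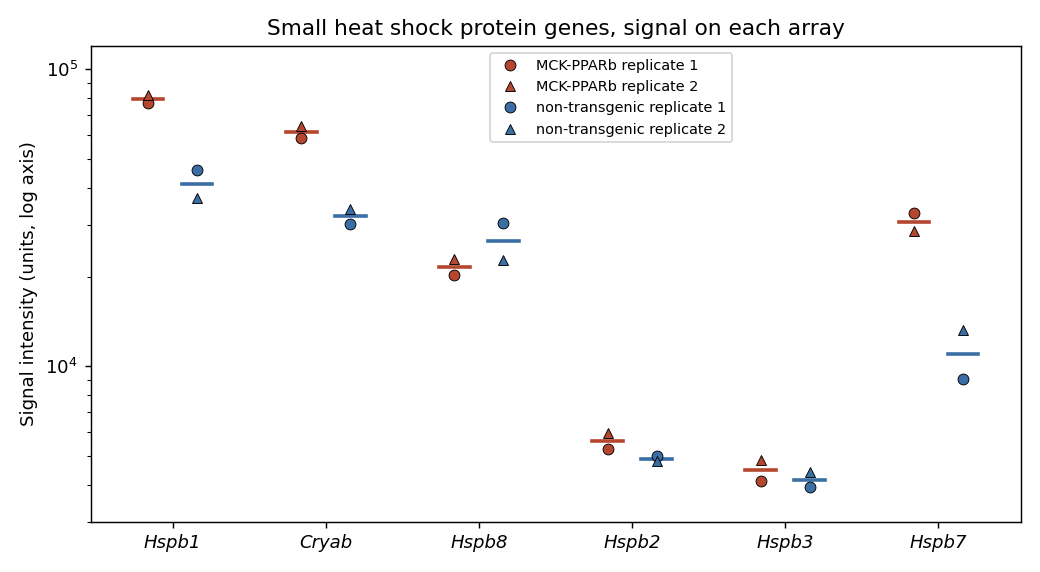
Signal of the representative probe set of each gene on every array, in signal units on a log axis. Circles and triangles are replicates 1 and 2 of MCK-PPARb (red) and non-transgenic muscle (blue), and each line is a group's geometric mean: the groups are apart for Hspb1, Cryab and Hspb7, nearly touch for Hspb2 and overlap for Hspb3 and Hspb8.

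Hspb1 encodes the mouse protein Hsp25, the counterpart of human HSP27, which binds actin and is phosphorylated by stress-activated kinases. The gene lies at chr5:135887919-135889563. Its signal was 76796 and 81811 in MCK-PPARb muscle, against 45721 and 36968 in non-transgenic muscle. The groups did not overlap, with MCK-PPARb higher. The log2 difference was 0.95 ± 0.20 (SE, n = 2 per group), with a 95% interval of 0.49 to 1.41 and an adjusted p of 0.111 in limma. A further probe set of Hspb1, whose suffix marks probes that may also bind other transcripts, read 47016 and 60545 in MCK-PPARb muscle and 18240 and 23853 in non-transgenic muscle, again without overlap. Its log2 difference was 1.35 ± 0.22, with an adjusted p of 0.0583 in limma. Hspb1 passed with quantile normalization (adjusted p = 0.0266), with the mean of its probe sets (log2 1.15, adjusted p = 0.0480) and without non-transgenic replicate 1 (log2 1.10, adjusted p = 0.0161), in a limma range of 0.0161 to 0.542 over the alternatives.

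Cryab encodes alpha-B-crystallin, a lens protein that is also abundant in heart and oxidative muscle, where it binds desmin and titin. Its signal was 58788 and 64416 in MCK-PPARb muscle, against 30165 and 33991 in non-transgenic muscle. The groups did not overlap. The log2 difference was 0.94 ± 0.18 (SE, n = 2 per group), with a 95% interval of 0.51 to 1.37 and an adjusted p of 0.0939 in limma. Another probe set gave 48492 and 54605 in MCK-PPARb muscle and 16153 and 23899 in non-transgenic muscle. There too both MCK-PPARb arrays were higher, by 1.39 ± 0.23 on the log2 scale (adjusted p = 0.0603 in limma). The remaining probe set of Cryab lay below the filter, at 362.8 and 118.4 in MCK-PPARb muscle and 205.9 and 149.3 in non-transgenic muscle, with overlapping groups, and was not tested. Cryab passed with quantile normalization (adjusted p = 0.0266) and without non-transgenic replicate 2 (log2 1.03, adjusted p = 0.0280), in a limma range of 0.0206 to 0.516 over the alternatives.

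Hspb8 works with the co-chaperone Bag3 in the autophagic clearance of damaged sarcomere proteins such as filamin C. The gene lies at chr5:116408491-116422864. Its signal was 20258 and 23070 in MCK-PPARb muscle, against 30368 and 22858 in non-transgenic muscle. Non-transgenic replicate 1 was the highest of the 4, and the groups overlapped. The log2 difference was -0.29 ± 0.21 (SE, n = 2 per group), with a 95% interval of -0.77 to 0.20 and an adjusted p of 0.690 in limma. A second probe set read 11927 and 11374 in MCK-PPARb muscle and 13350 and 9243 in non-transgenic muscle, a log2 difference of 0.068. A further one read 2197 and 2746 against 2161 and 2633 in non-transgenic muscle, a log2 difference of 0.042. The probe sets of Hspb8 thus disagreed in sign within intervals that include 0, and with median centring these 2 differences were -0.037 and -0.064.

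Hspb2 and Hspb3 encode a pair of muscle-specific proteins that form a complex with each other, and Hspb2 also binds the myotonic dystrophy kinase Dmpk. Hspb2 read 5267 and 5947 in MCK-PPARb muscle, against 4982 and 4804 in non-transgenic muscle. The groups did not overlap, but they nearly touched. The log2 difference was 0.19 ± 0.19 (SE, n = 2 per group), with a 95% interval of -0.24 to 0.63 and an adjusted p of 0.785 in limma. Hspb3, at chr13:113662896-113663676, read 4110 and 4848 in MCK-PPARb muscle, against 3920 and 4408 in non-transgenic muscle, with overlapping groups. Its log2 difference was 0.10 ± 0.20, with a 95% interval of -0.37 to 0.57 and an adjusted p of 0.907 in limma. The sign for Hspb3 turned with median centring (-0.0033) and without MCK-PPARb replicate 2 (-0.016).

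Cryab and Hspb2 are neighbours. On GRCm38.p6 the annotated span of Cryab, chr9:50745951-50756636, contains that of Hspb2, chr9:50751072-50752354. Within each array the log2 ratio of the Cryab to the Hspb2 signal was 3.48 and 3.44 in MCK-PPARb muscle, against 2.60 and 2.82 in non-transgenic muscle. The ratio was higher on both MCK-PPARb arrays, by 0.75 on the log2 scale, so the signals of these neighbours differed unequally between the genotypes. The exact two-sided permutation test gave p = 0.333, the smallest that 2 arrays against 2 allow.

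Hspb7, also called cvHsp for its expression in the cardiovascular system, binds filamin C and is needed for intact sarcomeres in mouse heart. The gene lies at chr4:141420779-141425310. Its signal was 32943 and 28473 in MCK-PPARb muscle, against 9096 and 13307 in non-transgenic muscle. The lower of the MCK-PPARb arrays was well above the higher of the non-transgenic ones. The log2 difference was 1.48 ± 0.23 (SE, n = 2 per group), with a 95% interval of 0.94 to 2.01 and an adjusted p of 0.0471 in limma. On the fold scale the interval ran from 1.92 to 4.03. Counted with its sign, the difference was above that of Hspb7 in 46 of the 6841 genes. It was above that of Hspb1 in 153, Cryab in 155, Hspb2 in 2040, Hspb3 in 2748 and Hspb8 in 5432.

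The other probe sets of Hspb7 gave differences of the same size with more spread. One read 35909 and 19724 in MCK-PPARb muscle, against 10891 and 7814 in non-transgenic muscle, a log2 difference of 1.53 ± 0.31 without overlap (adjusted p = 0.105 in limma). The dimmest read 16724 and 4803 in MCK-PPARb muscle, against 5090 and 1791 in non-transgenic muscle. In that probe set replicate 1 was high in both genotypes and the groups overlapped, with a log2 difference of 1.57 ± 0.64 and an adjusted p of 0.446 in limma. The call of Hspb7 was close to the threshold and was lost without MCK-PPARb replicate 1 (log2 1.37, adjusted p = 0.174), without MCK-PPARb replicate 2 (log2 1.58, adjusted p = 0.117), when its probe sets were averaged (log2 1.53, adjusted p = 0.117) and without the intensity trend (adjusted p = 0.204 in limma). Over all alternatives its difference ran from 1.20 to 1.75 and its limma adjusted p from 0.00124 to 0.204.

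**Figure D3:**
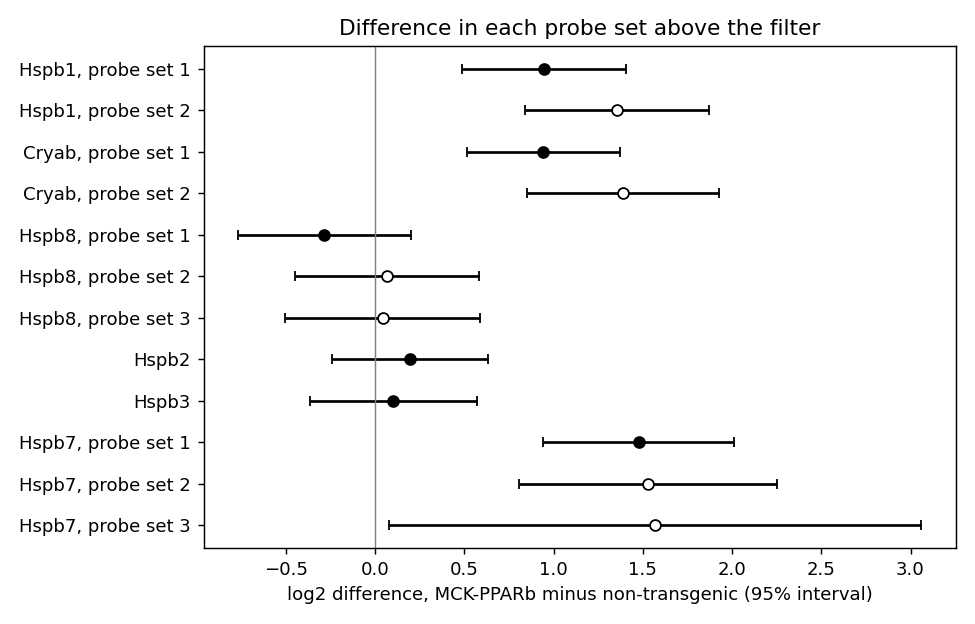
The log2 difference, MCK-PPARb minus non-transgenic, of each of the 12 probe sets above the filter, with its 95% interval from limma; filled points are the representatives and open points the other probe sets of a gene. All 7 probe sets of Hspb1, Cryab and Hspb7 lie to the right of 0 with their intervals, and the intervals of all 5 probe sets of Hspb8, Hspb2 and Hspb3 include 0.

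Counted over probe sets, 11 of the 12 above the filter had a difference above 0, while over all genes 51.2% did. Of the 12, 7 were at an unadjusted p under 0.05, and 1 passed the adjustment, against 0.601% of all probe sets tested. Probe sets of a gene read the same transcripts and are not independent. Over genes, the groups did not overlap for 4 of the 6 members (Hspb1, Cryab, Hspb2 and Hspb7), all with MCK-PPARb higher, while 42.9% of all genes did not overlap, 22.2% with MCK-PPARb higher and 20.8% with MCK-PPARb lower. An unadjusted p under 0.05 was reached by 3 of the 6 members and by 10.9% of all genes. Summed over the 6 representatives, the signal was 198162 and 208565 in MCK-PPARb muscle, against 124252 and 116336 in non-transgenic muscle.

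**Figure D4:**
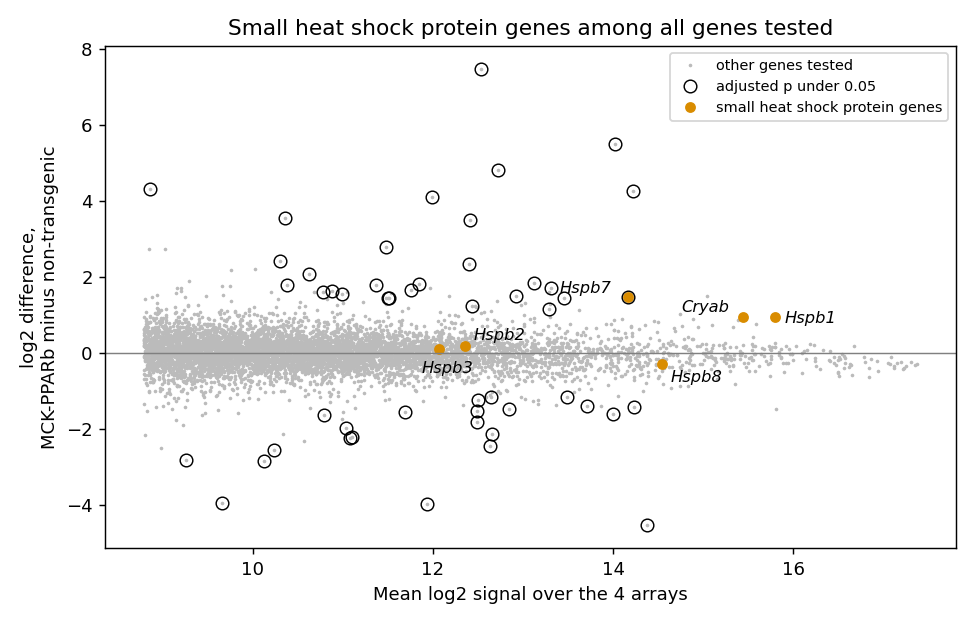
Mean log2 signal over the 4 arrays (horizontal) against the log2 difference, MCK-PPARb minus non-transgenic (vertical), for the 6841 genes tested. Orange points are the 6 small heat shock protein genes and rings the 50 called genes: Hspb7 is ringed, Hspb1 and Cryab lie at 0.95 and 0.94 without a ring, and Hspb2, Hspb3 and Hspb8 lie near 0.

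Further genes named after this family were barely measured. Hspb11, which in spite of its name encodes an intraflagellar transport protein, read 424.1 and 573.5 in MCK-PPARb muscle and 317.9 and 606.5 in non-transgenic muscle, with overlapping groups (adjusted p = 0.935 in limma). Cryaa, the lens alpha-A-crystallin gene, and Odf1, a sperm tail gene related to the family, lay below the filter at 17.6 to 66.4 units on all arrays. Hspb9 was not analysed here.

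Partners, kinases and clients of the small heat shock proteins were described as a list of 16 genes, of which 15 were measured and tested. None was called (limma, with 3 genes at an unadjusted p under 0.05), and the median log2 difference was 0.062, against 0.011 over all genes. The 4 of smallest p were Flnc, Actn2, Bag3 and Dmpk. Flnc, which encodes the Z-disc protein filamin C, a binding partner of Hspb7 and a client of the Hspb8 complex, read 12029 and 12501 in MCK-PPARb muscle, against 6058 and 6887 in non-transgenic muscle (log2 0.92 ± 0.18, adjusted p = 0.0939). Actn2, the alpha-actinin found in all fibre types, read 66293 and 62447 in MCK-PPARb muscle, against 40601 and 34940 in non-transgenic muscle (0.77 ± 0.19, adjusted p = 0.165). Bag3 read 12404 and 16074 in MCK-PPARb muscle, against 9623 and 9106 in non-transgenic muscle (0.59 ± 0.20, adjusted p = 0.332). For Dmpk the log2 difference was 0.40 ± 0.19 (adjusted p = 0.517). In each of these 4 genes both MCK-PPARb arrays were the higher ones, which their choice by smallest p favours. Over the 15 genes, the groups did not overlap for 5 with MCK-PPARb higher and for 1 with it lower. The shares over all genes were 22.2% and 20.8%. In 4 of the 16 alternatives 1 gene of the list was called, among them a replicate block and an adjusted p under 0.1.

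Heat shock factors and the chaperones they control formed a list of 19 genes, of which 17 were measured and 16 tested. Among the factors Hsf4 alone was tested (log2 0.47 ± 0.32, adjusted p = 0.670 in limma). Hsf2 lay below the filter, and Hsf1 was not analysed here. Of the 16 tested, 3 rose, 0 fell and 13 did not pass in limma. Over all genes 0.731% were called, 0.409% higher and 0.322% lower. The median log2 difference was 0.42, with a range of -0.33 to 4.83, against a median of 0.011 over all genes. The groups did not overlap for 9 of the 16 with MCK-PPARb higher and for 3 with it lower. The shares over all genes were 22.2% and 20.8%. The genes that rose were Hspa1b and Hspa1a, which encode the stress-inducible Hsp70, and Dnajb1, an Hsp40 co-chaperone of Hsp70. Hspa1b read 29981 and 43325 in MCK-PPARb muscle, against 1443 and 1113 in non-transgenic muscle, a log2 difference of 4.83 ± 0.24 (adjusted p = 0.000412 in limma). Hspa1a differed by 4.12 ± 0.23 and Dnajb1 by 2.79 ± 0.27. Hspa1a and Hspa1b are near-identical copies whose probes may share transcripts, so their signals are uncertain as separate values. Over the alternatives, 3 or 4 genes of the list were called.

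**Figure D5:**
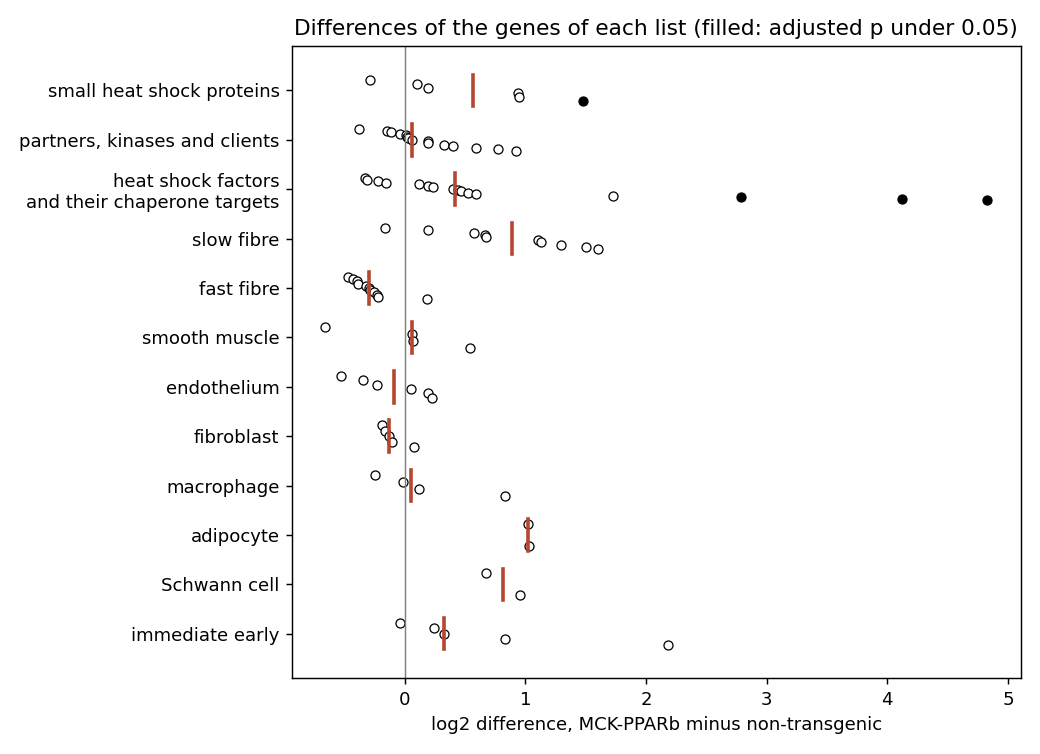
The log2 difference, MCK-PPARb minus non-transgenic, of every gene above the filter in the small heat shock protein family and in 11 other gene lists. Each point is a gene, filled where its adjusted p is under 0.05, and the red line is the list's median: 0.57 for the small heat shock proteins, 0.42 for heat shock factors and their chaperone targets, 0.89 for slow fibre genes and -0.29 for fast fibre genes.

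Slow fibre genes were not called, but 9 of 10 had a difference above 0, against 51.2% of all genes. All 10 genes of the list were tested and none passed in limma, against 0.731% of all genes. An unadjusted p under 0.05 was reached by 7, against 10.9% of all genes. The groups of 8 did not overlap, with MCK-PPARb higher, against 22.2% of all genes. Their median log2 difference was 0.89, and their summed signal was 206609 and 240579 in MCK-PPARb muscle, against 103871 and 155212 in non-transgenic muscle. That none passed depended on the processing, since at least 1 of them was called in 11 of the 16 alternatives. With a replicate block 5 were called, with median centring 2 and with quantile normalization 1. Myl2, the slow myosin light chain, read 51382 and 62406 in MCK-PPARb muscle, against 16355 and 24471 in non-transgenic muscle (log2 1.50 ± 0.24, limma adjusted p = 0.0540), the smallest p of the list. Myh7, the slow myosin heavy chain, differed by 0.67 ± 0.35 on the log2 scale (adjusted p = 0.563 in limma). Myl3, another slow light chain, was at 0.20 and Tpm3, a slow tropomyosin gene, at -0.16, both with overlapping groups. The 11 fast fibre genes had a median of -0.29, and 0 were called (limma, with 0 genes at an unadjusted p under 0.05). The groups of all 11 overlapped, while 42.9% of all genes did not overlap. Their summed signal was 1499444 and 1333383 in MCK-PPARb muscle, against 2340384 and 1283380 in non-transgenic muscle. Non-transgenic replicate 1 thus lay above both MCK-PPARb arrays and replicate 2 below both. The part of fibre type in the differences of Hspb1, Cryab and Hspb7 was not tested. In whole muscle a change in the number of cells of a type and a change in RNA per cell cannot be told apart.

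Small heat shock protein genes are also expressed outside muscle fibres, so markers of other cells were read beside them. Smooth muscle, in which Hspb1 is abundant, had 6 of 6 markers measured, 4 of them above the filter, with Cnn1 and Lmod1 below it. Their summed signal was 25078 and 28145 in MCK-PPARb muscle, against 20803 and 23893 in non-transgenic muscle. Endothelial markers, 6 of 6, summed to 9967 and 9989 in MCK-PPARb muscle and 9754 and 11568 in non-transgenic muscle. Fibroblast markers, 5 of 5, summed to 289711 and 239004 in MCK-PPARb muscle and 301097 and 255667 in non-transgenic muscle. Macrophage markers, 5 of 5, summed to 7747 and 7674 in MCK-PPARb muscle and 7431 and 6898 in non-transgenic muscle. The sums of endothelial and fibroblast markers overlapped between the groups, while those of smooth muscle and macrophage markers were higher on both MCK-PPARb arrays. The smooth muscle gap came mostly from Smtn (log2 difference 0.54) and the macrophage gap from Adgre1 (0.83). Of the tested genes of these lists, Myh11 (-0.66), Csf1r (-0.016) and Lyz2 (-0.25) had the opposite sign.

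Adipocyte and Schwann cell markers were mixed in direction. Of 6 adipocyte markers 4 were measured, and they summed to 4248 and 4870 in MCK-PPARb muscle, against 2284 and 2590 in non-transgenic muscle, a sum carried by Adipoq (log2 difference 1.03) and Retn (1.02). Lep (-0.80) and Cidec (-0.47) lay below the filter, with the opposite sign, and were not tested. Of 6 Schwann cell markers 3 were measured, and they summed to 29009 and 32982 in MCK-PPARb muscle, against 17035 and 18964 in non-transgenic muscle, a sum carried by Mbp (log2 difference 0.96) and Pmp22 (0.67). S100b (-0.94) lay below the filter, with the opposite sign, and was not tested. Immediate early genes, 7 of 7, summed to 17380 and 15393 in MCK-PPARb muscle, against 10553 and 9381 in non-transgenic muscle. The gap came mostly from Jun (log2 difference 0.83) and Atf3 (2.19). The other tested genes, Fos (0.24), Egr1 (0.33) and Ier2 (-0.037), had overlapping groups. No marker of any list was at 0, and no gene of these lists was called in limma, against 0.731% of all genes. An unadjusted p under 0.05 was reached by 2 adipocyte, 2 Schwann cell and 2 immediate early genes, and by 10.9% of all genes. The part of these lists in the differences of the small heat shock protein genes was not tested.

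The genes whose pattern over the 4 arrays was most like that of Hspb7 were Ak4, Scd1 and Ccdc136. Likeness was measured as the root mean square distance between log2 signals centred on each gene's mean, and a small distance over 4 arrays describes these arrays only. The distance was 0.071 for Ak4, a mitochondrial adenylate kinase that read 946.1 and 726.5 in MCK-PPARb muscle, against 246.4 and 339.2 in non-transgenic muscle, around the filter level. It was 0.077 for Scd1, the stearoyl-CoA desaturase, which read 14480 and 11719 in MCK-PPARb muscle, against 4092 and 5233 in non-transgenic muscle. Ccdc136, also at 0.077, read 2615 and 2124 in MCK-PPARb muscle, against 787.5 and 1083 in non-transgenic muscle.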

How the data were processed

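Gastrocnemius RNA was measured on 4 Affymetrix-type arrays. The deposited table gives a linear signal intensity for every probe set on every array. The submitters' processing notes name MAS5 and GCOS without versions. Trimmed by 2% at both ends, the mean of the authors' deposited intensities was 1501 on all arrays, which had thus been scaled alike.

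Of 22690 probe sets, 64 controls were left out. Of the other 22626, 20380 carried 1 symbol in the platform annotation, 691 several and 1555 none here; 20351 symbols were brought up to date by gene number with the GRCm38.p6 table. Intensities were log2-transformed as they stood. Probe sets whose mean log2 signal exceeded the median of all were kept (11313). The test was that of limma 3.58.1 under R 4.3.3 (lmFit, eBayes with an intensity trend, two-sided, Benjamini-Hochberg over kept probe sets); the prior added 5.38 degrees of freedom to 2. The number of arrays limits the precision. The fit was tested on simulated data. The fit was repeated with median-centred or quantile-normalized arrays, 100 units added before the logarithm, the filter dropped or moved to the 75th percentile, other variance models, a replicate block, each array left out, other uses of a gene's probe sets and an adjusted p under 0.1.

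Named were the family, Ppard, members of the lists of further family genes, of partners and of heat shock chaperones that were called or, where a list had none, up to 4 of smallest p, and the 3 genes most alike to each called member. All other genes named from marker lists, and Cryaa, Odf1, Hsf1, Hsf2 and Hsf4, were added once values were known. The family, the lists and the tests were chosen with earlier results of these data known. Start regions are RefSeq sequences of GRCm38.p6.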

Additional observations from a re-analysis of the deposited data

How the results depend on the processing

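Hspb7, Hspb1, Cryab and Hspb2 kept a difference above 0 and Hspb8 one below 0 in all 16 alternatives, while that of Hspb3 was -0.0033 with median centring and -0.016 to 0.22 with an array left out, the lowest without MCK-PPARb replicate 2. In place of 1 called member, 3 (Hspb7, Hspb1 and Cryab) were called with quantile normalization, alone or combined with leaving out non-transgenic replicate 1, a combination chosen after seeing the data. At an adjusted p under 0.1, 2 were called (Hspb7 and Cryab). Without the intensity trend 0 were called in limma, with an unadjusted p under 0.05 for 3. Leaving out each array in turn gave 0 to 2, with 0 without either MCK-PPARb array, where 3 members had an unadjusted p under 0.05. With all kept probe sets of each gene averaged, the 1 called member was Hspb1.

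Over all genes, 50 were called, against 14 without the trend, 102 at an adjusted p under 0.1 and 26 to 105 with an array left out. A fit that leaves an arm with 1 array assumes that it varies like the other group. Arrays share only a replicate number: deviations of same-numbered arrays correlated at 0.276 over probe sets. With a replicate block 3 members, Hspb7, Hspb1 (adjusted p = 0.0275) and Cryab (0.0206), and 218 genes were called. The cause of these changes was not tested. Signal over background limits Hspb11, Cryaa and Odf1.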
